A study of Solanum lycopersicum with 3 samples.

Results

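RNA left in the cell debris pellet of a high-salt homogenate of tomato fruit wall was compared with RNA taken by direct phenol extraction. The comparison used 2 of the 3 arrays in the series, chosen by their sample titles, and covered the 10038 non-control probe sets of the 10209 on the Affymetrix tomato GeneChip. In each preparation 10 to 12 g of pericarp of Solanum lycopersicum cultivar Ailsa Craig, from glasshouse plants, was the starting material. For the pellet, tissue was homogenised in 2 ml per g of a Tris buffer with sucrose, magnesium and potassium chloride, debris was spun down at 10000 x g for 15 min, and the debris was extracted again by the same high-salt method (Ex2). For Ex1, tissue went into 1 ml per g of a buffer containing naphthalenedisulfonic acid, aminosalicylic acid and phenol, and was shaken directly with phenol and chloroform. The remaining array, Ex2, holds RNA from the cleared high-salt supernatant and is given beside the others where it helps to place a value. Fruit stage, the number of fruit or plants pooled, and whether the pellet and the Ex2 supernatant came from the same homogenate are not given in the sources used here.

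Each group had 1 array and no replicate, so no difference below was tested, no p-value or standard error exists, and the spread between preparations is unknown. The number of arrays limits the precision. Differences are log2(pellet intensity + 1) minus log2(Ex1 intensity + 1), and a probe set counted as different at 2-fold, a log2 difference of 1. In bulk RNA, fewer cells of a type and less RNA per cell cannot be told apart.

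Messenger RNAs of secreted and membrane proteins are translated on ribosomes attached to the endoplasmic reticulum, while those of most cytosolic, nuclear and plastid-imported proteins are translated on free ribosomes. A ripening pericarp makes many secreted proteins: enzymes that loosen and dissolve the wall, and defence proteins such as chitinases, glucanases and lipid transfer proteins that accumulate in the wall, the vacuole or at the fruit surface. The study's title names mRNAs of secreted and endomembrane proteins as what its extraction method recovers, and the pellet is the material that method leaves behind.

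Transcripts of secreted defence proteins stood out as higher in the pellet. The chitinase gene CHI17 was 4.16-fold higher, the PR-4 type gene PR-P2 3.83-fold and the beta-1,3-glucanase gene GluB 3.57-fold. Among named genes the lowest relative to Ex1 were a few regulator genes: the DREB-type factor gene DREB3 was 5.05-fold lower in the pellet, the WRKY factor gene WRKYIId 4.31-fold and the blue-light receptor gene CRY2 3.05-fold. These 3 regulator genes passed the brightness filter given below through Ex1 alone, and CHI17 passed it through the pellet array alone. That largely fixes their direction. Among the 426 named genes bright on both arrays, 13 were 2-fold or more higher in the pellet and 4 lower. With the deposited values, cell wall enzymes lay mostly a little above Ex1, and most of the transcriptome differed little. Both statements depend on scaling. With the arrays scaled on hybridisation spikes the cell wall median went from 0.57 to -0.01, and probe sets at least 2-fold lower went from 253 to 979.

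Of the 10038 probe sets, 5297 passed a brightness filter, which asked that the brighter of the pair of arrays reach an intensity of 175, the median of all non-control values. Of these, 200 stood 2-fold or more above Ex1 (3.78%) and 253 stood 2-fold or more below it (4.78%), which makes 453 apart in all (8.55%). That split depends on scaling: it was 44 higher and 979 lower with the arrays scaled on hybridisation spikes, 265 and 195 with scaling on RPL3 and RPL8 (ribosomal protein genes), and 247 and 210 with each array centred on its median. With no filter on brightness the shares of all 10038 probe sets were 2.73% higher and 3.44% lower. Of those passing, 69.4% differed by less than 0.5 on the log2 scale. The interquartile range of the differences was -0.29 to 0.31, around a median of 0. A probe set bright on the pellet array alone (248 of them) or on Ex1 alone (335) enters the count through the array where it is high. Among the 4714 bright on both arrays, 119 reached 2-fold above Ex1 in the pellet and 135 reached 2-fold below. The intensities of 1713 probe sets (17.1%) were identical on both arrays to the last deposited digit, and 222 of these passed the filter, so a difference of 0 is often an exact tie.

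The spread of differences depended on brightness. The probe sets were ordered by mean brightness and put into 10 equal groups. In the dimmest group, 54.3% were exact ties and none of the 1004 was 2-fold apart. The widest group was the fifth, with mean log2 values of 6.64 to 7.47, where the 5th to 95th percentiles ran from -1.19 to 0.87. In the brightest group they ran from -0.59 to 0.64, with 11 probe sets at least 2-fold higher and 15 lower in the pellet. A 2-fold difference in a bright gene is therefore further from the bulk of its neighbours than the same difference in a gene near the filter.

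**Figure D1:**
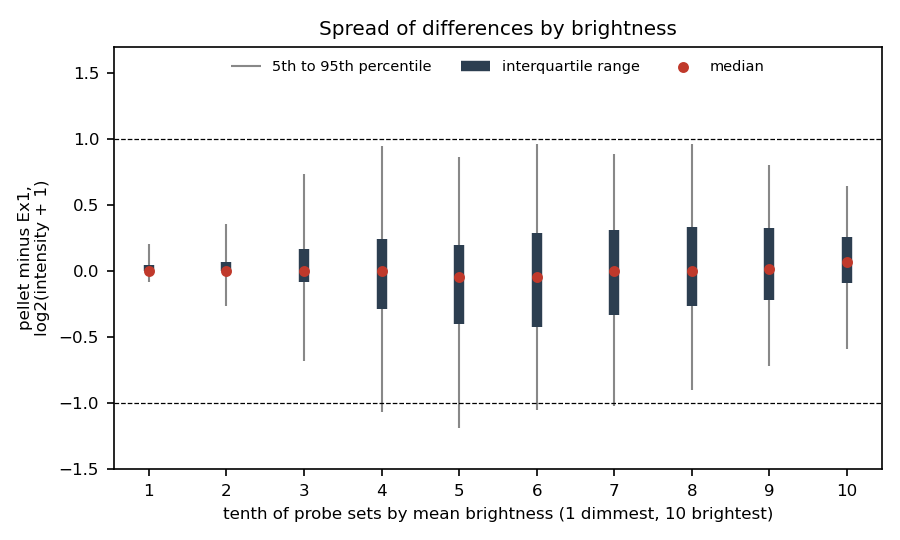
Percentiles of the log2 difference, pellet minus Ex1, in 10 equal groups of the 10038 non-control probe sets ordered by mean brightness of both arrays, with 1 array a group. Points are medians, thick bars the interquartile range, thin lines the 5th to 95th percentile and dashed lines 2-fold; the spread is narrowest in the dimmest groups, widest near the middle and narrows again to -0.59 to 0.64 in the brightest.

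The arrays also differed in signals outside the fruit genes. The hybridisation spikes bioB, bioC and bioD were a median of 1.49-fold brighter on the pellet array (21 probe sets), and scaling the arrays on them would lower every difference by 0.58. The 6 cre spike probe sets were 1.07-fold brighter on the pellet array, a difference of 0.10, so the kinds of spike differed in size, and spike scaling below means bioB, bioC and bioD alone. Scaling on RPL3 and RPL8 would raise every difference by 0.11. Any pellet difference between 0 and 0.58 thus turns below 0 with spike scaling, and any between -0.11 and 0 turns above 0 with ribosomal scaling. RPL3 and RPL8 themselves were at -0.19 and -0.02. By contrast, the 10 ribosomal protein and eIF-5A genes described at the end had a median of 0.17, with 8 above 0. The direction of the ribosomal shift therefore rests on the choice of RPL3 and RPL8. For 25S ribosomal RNA the intensity was 568 on the pellet array and 1809 on Ex1. The ratio of 3' to 5' signal was 1.35 on the pellet array and 1.203 on Ex1 for actin, 2.81 and 2.62 for EF1a in the same order, and 1.34 on both arrays for GAPDH, and the part of these differences in the results was not tested. For the fruit markers E8, EXP1, PG2, Psy1 and TBG4, all 5 measured of 6 listed, summed intensity was 40327 on the pellet array and 40063 on Ex1. The sum is mostly that of the bright PG2, Psy1 and E8. By member the differences were -0.22 for Psy1, -0.02 for E8, 0.16 for PG2, 0.27 for EXP1 and 0.85 for TBG4.

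Gene names were available for 909 probe sets, standing for 803 genes, of which 471 passed the filter. Of the 471, 24 were 2-fold or more higher in the pellet (5.1%) and 12 lower by as much (2.55%), 36 in all (7.64%), and the median difference was 0. This split was 9 higher and 75 lower with spike scaling, and 30 and 9 with either ribosomal scaling or centring. Of the 24, 11 were bright on the pellet array alone, and of the 12, 8 were bright on Ex1 alone. Among the 4794 unnamed probe sets that passed, 176 were higher by 2-fold or more (3.67%) and 240 lower (5.01%). The most extreme differences were in unnamed probe sets: the highest read 268 on the pellet array and 30.6 on Ex1, and the lowest read 181 and 1667 in the same order.

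**Figure D2:**
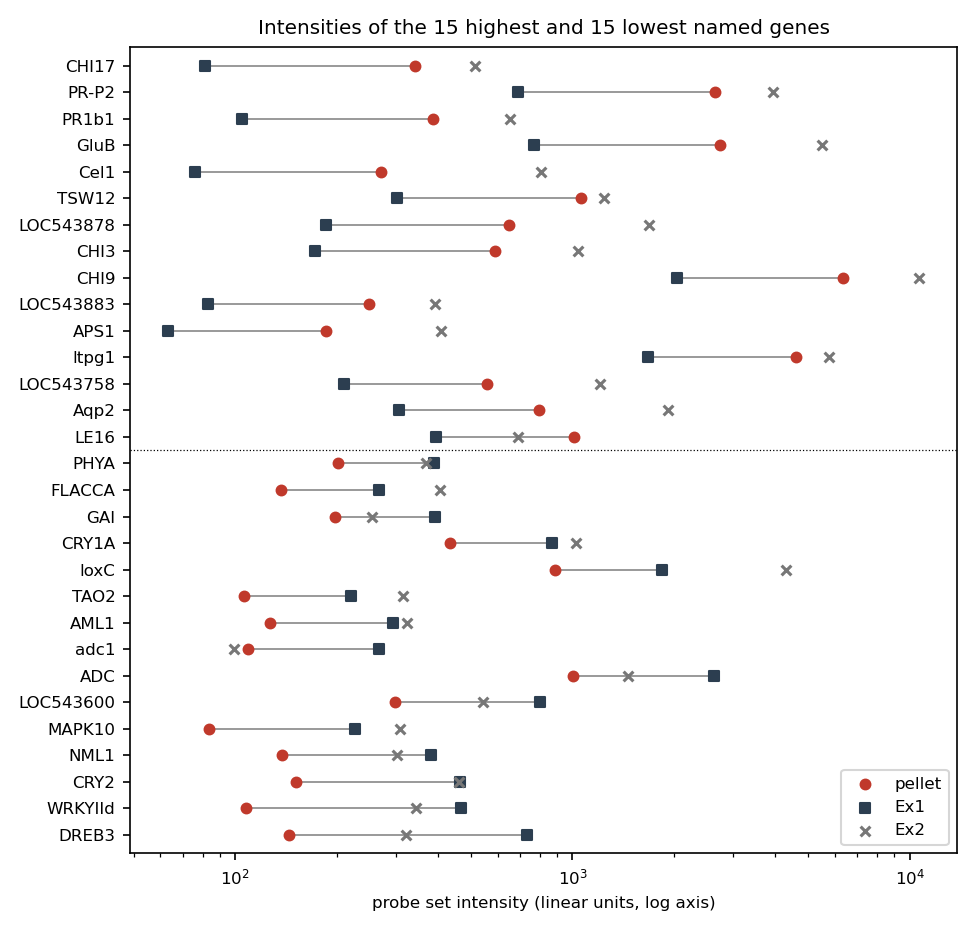
Probe set intensity on a log axis for the 15 named genes with the highest and the 15 with the lowest pellet minus Ex1 difference among the 471 passing the filter, 1 array a group. Circles are the pellet, squares Ex1 and crosses the Ex2 supernatant; CHI17 at the top read 342 on the pellet array and 81.3 on Ex1, and DREB3 at the bottom read 144 and 732.

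Chitinases and a glucanase, enzymes that cleave fungal cell wall polymers, were among the highest genes. CHI17 read 342 on the pellet array and 81.3 on Ex1, and CHI3 read 590 and 173 in that order, 3.40-fold higher. Both were bright on the pellet array alone, since their Ex1 values lay below the filter. CHI9, the brightest chitinase, read 6347 on the pellet array against 2045 on Ex1, 3.10-fold higher, well inside the measured range on both. GluB read 2747 on the pellet array against 768 on Ex1. On the Ex2 array these 4 genes were brighter still, with CHI9 at 10686 and GluB at 5512, so the pellet lay between Ex1 and the supernatant for each.

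Small pathogenesis-related proteins, which plants induce on infection and some of which also accumulate in ripening fruit, were higher in the pellet too. PR-P2 read 2652 on the pellet array against 692 on Ex1. The PR-1 gene PR1b1 read 386 against 105, 3.67-fold higher, but it passed the filter through the pellet array alone, which largely fixes its direction. Its other probe set was dim on both arrays (12.6 on the pellet and 8.90 on Ex1). The thaumatin-like gene PR5 (now LOC543878) read 648 on the pellet array against 186 on Ex1, 3.46-fold higher. The osmotin-like gene NP24-I, one of the brightest fruit transcripts, read 11600 on the pellet array against 6749 on Ex1, a difference of 0.78.

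Lipid transfer proteins, small secreted proteins that bind lipids and are abundant in the epidermis, were also higher in the pellet. TSW12 read 1059 on the pellet array against 302 on Ex1, 3.51-fold higher. LE16 read 1014 against 394, 2.57-fold higher, and ltpg1, a lipid transfer gene by its symbol, 4599 against 1670, 2.75-fold higher. Unlike TSW12 and ltpg1, LE16 had a lower value on Ex2, 688, than in the pellet. LE16 and TSW12 are also the only epidermal markers measured, 2 of 5 listed, with a summed intensity of 2073 on the pellet array and 695 on Ex1. The part of the amount of epidermis in these values was not tested.

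Together the secreted defence list had 23 measured genes, of which 12 passed the filter. All 12 were above 0 and 10 of them by 2-fold or more, against 5.1% of all named genes passing, with a median of 1.78 (interquartile range 1.50 to 1.85) against a median of 0 for all named genes. Of the 12, 4 passed through the pellet array alone. Of the 8 bright on both arrays, 6 were at least 2-fold higher, against 13 of all 426 named genes bright on both. The median of these 8 was 1.71. Among the 11 dimmer members, differences ran from -0.16 for sbt4a up to CEVI57, at 125 on the pellet array against 35.1 on Ex1, and the median of all 23 was 1.29. The acid phosphatase gene APS1 read 186 on the pellet array against 63.1 on Ex1 and passed through the pellet array alone. The nearest to 0 was TPx1 at 0.22, a sign that spike scaling turned; its synonym in the RefSeq table, LeTPx1p, names a thioredoxin peroxidase, so the gene may not belong with secreted proteins. Probe sets of closely related family members can share signal, so the values of single chitinase or PR genes may be partly those of relatives.

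**Figure D3:**
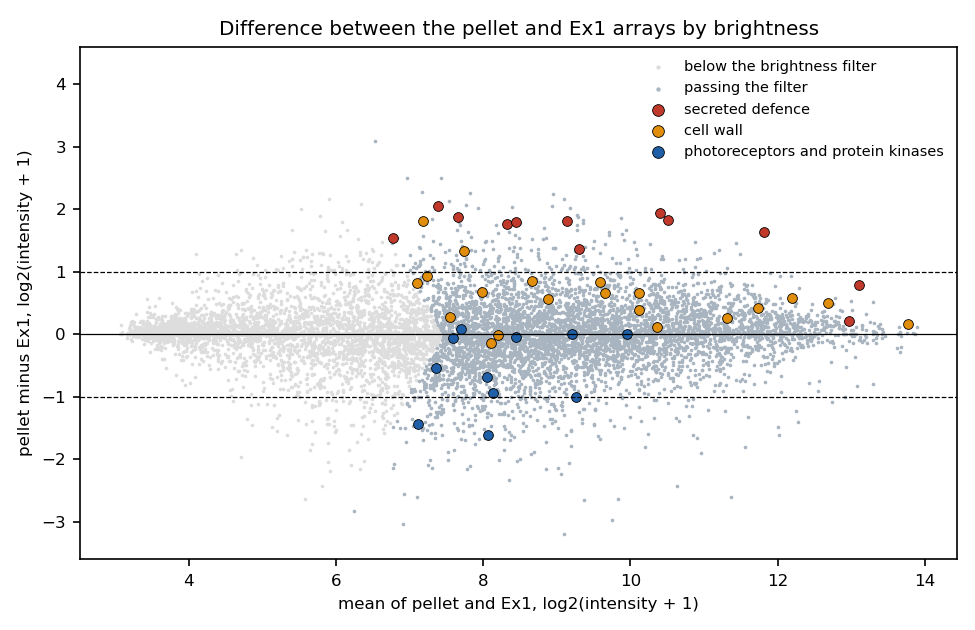
Log2 difference, pellet minus Ex1, against mean log2 brightness for each non-control probe set, 1 array a group, with dashed lines at 2-fold. Coloured points are named genes passing the filter: the secreted defence list (12 genes, 10 above the upper line) lies mostly high, the cell wall list (20 genes) mostly between 0 and 1, and the photoreceptor and kinase list (11 genes) mostly below 0.

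Cell wall enzymes and wall proteins were modestly higher in the pellet. Of 43 measured genes 20 passed the filter: 18 were above 0, 2 below, and 2 at least 2-fold higher (5.1% among all named genes passing), with a median of 0.57 (interquartile range 0.27 to 0.82) and of 0.16 over all 43. The sign of the filtered median turned with scaling on the spikes, where it was -0.01. The 2 past 2-fold were the endoglucanase gene Cel1, at 271 on the pellet array and 76.2 on Ex1 (3.52-fold), and GP1, the noncatalytic beta subunit of polygalacturonase, at 338 and 134 in the same order (2.51-fold). Both passed the filter through the pellet array alone, and of the 15 wall genes bright on both arrays none was 2-fold apart.

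The differences of wall genes varied by member. The fruit polygalacturonase gene PG2, which dissolves pectin during ripening, read 14827 on the pellet array against 13236 on Ex1, a difference of 0.16. The ripening expansin gene EXP1, whose product loosens the wall, read 2796 against 2321 (0.27). The mannanase gene Man4 read 5706 against 3835 (0.57) and the pectin methylesterase gene PE1 7794 against 5531 (0.49). These 4 differences all turned sign with scaling on the spikes. Another pectin methylesterase gene, PME2.1, was further from Ex1, at 1030 on the pellet array against 574 (0.84). Beta-galactosidases trim galactan side chains of pectin. Those that passed ranged from -0.01 for TBG1 (293 against 295) to 0.93 for TBG2 (208 against 108), with TBG4 at 0.85, TBG5 at 0.68 and TBG3 at 0.65. TBG2 passed through the pellet array alone, which largely fixes its direction. The dimmer TBG6 and TBG7 were at -0.31 and 0.02. Ex2 values of the beta-galactosidases that passed were several times higher, 5554 for TBG3 against 1008 on the pellet array.

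Membrane transporters ranged from no difference to more than 2-fold. Of 18 measured, 6 passed, all above 0 and 2 of them, LHA1 and NHX2, through the pellet array alone, with a median of 0.57 that turned to -0.01 with scaling on the spikes; over all 18 the median was 0.14. The aquaporin gene Aqp2, coding for a water channel, read 795 on the pellet array against 305 on Ex1, 2.60-fold higher. It was the 1 gene past 2-fold of the 6 that passed, against 5.1% of all named genes passing. Differences of the 12 dimmer members ran from -0.08 for LCA1 to 1.11 for TIP. The phosphate transporter gene PT1 read 806 against 542 (0.57), the metal transporter gene NRAMP3 2249 against 1506 (0.58) and the plasma membrane proton pump gene LHA1 204 against 135 (0.59). LHA2, a second pump gene, read 1266 on the pellet array against 1251 on Ex1 (0.02), though it read 5548 on Ex2. Of 6 cell surface receptor genes, Eix1 alone passed, at 703 on the pellet array against 664 on Ex1 (0.08).

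Ethylene signalling genes split by member. Of 7 receptor and EIN2 genes 5 passed. The receptor genes ETR3 (now LOC544279) and ETR4, the brightest, were lower in the pellet, at 2153 against 4058 on Ex1 (-0.91) and 2152 against 3583 (-0.74). ETR1 was higher, at 361 on the pellet array against 238 on Ex1 (0.60), as was EIN2, which codes for the membrane protein downstream of the receptors, at 193 against 131 (0.55), which passed the filter through the pellet array alone. The EIN2 difference turned sign with scaling on the spikes. The 6 genes for soluble components that passed, CTR kinases and EIL transcription factors, were all below 0, from -0.85 for CTR1 (201 on the pellet array against 363 on Ex1) to -0.25 for EIL1 (899 against 1071), with a median of -0.63 and none 2-fold apart; 5 of the 6 were bright on both arrays, with a median of -0.56.

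**Figure D4:**
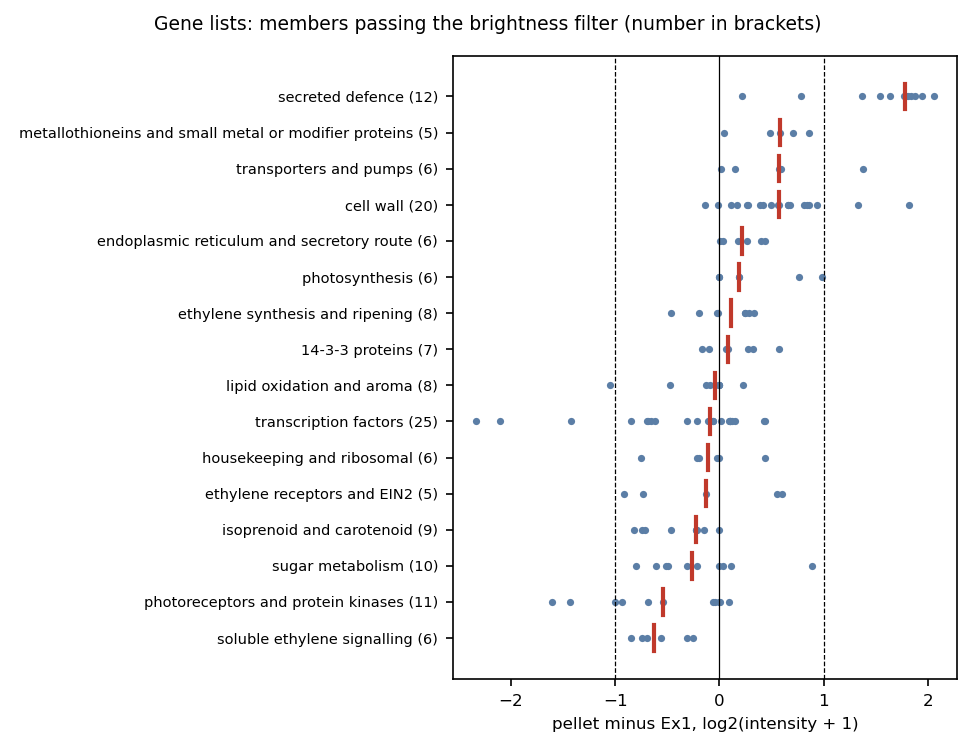
Log2 difference, pellet minus Ex1, of every member passing the brightness filter in the 16 gene lists with at least 3 such members, 1 array a group. Points are genes, red bars list medians and dashed lines 2-fold; the secreted defence list has the highest median (1.78) and soluble ethylene signalling the lowest (-0.63), and scaling on the spikes would move every point left by 0.58, turning the signs of the medians between 0 and that value.

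Transcription factors as a list lay near 0, with a few far below. Of 46 measured, 25 passed: 16 were below 0, 9 above, 3 at least 2-fold lower against 2.55% of named genes passing, and the median was -0.09, which turned with ribosomal scaling. DREB3 read 144 on the pellet array against 732 on Ex1, and WRKYIId read 108 against 468. The bZIP factor gene TGA2.2 (now LOC543600) read 298 against 803, 2.69-fold lower. DREB3 and WRKYIId lay under the filter on the pellet array, while TGA2.2 was bright on both. The master ripening regulator genes differed less: NOR read 1663 on the pellet array against 2613 on Ex1 (-0.65), and RIN 5425 against 5856 (-0.11).

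Light receptors and protein kinases included further low genes. CRY2 read 152 on the pellet array against 465 on Ex1. CRY1A, the other cryptochrome gene among the lowest, read 434 against 870, just past 2-fold, and its other probe set was at -0.83. The phytochrome gene PHYA read 202 against 387 (-0.94) and the MAP kinase gene MAPK10 83.5 against 227, 2.70-fold lower. Of 12 genes on this list 11 passed, 8 below 0, 2 above 0 and 1 at 0, with 3 at least 2-fold lower (2.55% among all named genes passing) and a median of -0.54. That median rests on dim members, since CRY2, MAPK10 and MPK3 were below the filter on the pellet array. Over the 8 genes bright on both arrays it was -0.05. Of these 8, 1 was at least 2-fold lower, against 4 of all 426 named genes bright on both. The genes near 0 were mostly kinases, among them MPK2 with identical values of 989 and the cryptochrome gene Cry1b at -0.07.

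The other genes among the 15 lowest came from several routes. The arginine decarboxylase gene ADC, for an early step of polyamine synthesis, read 1001 on the pellet array against 2624 on Ex1, 2.62-fold lower, and adc1 read 109 against 268, 2.43-fold lower; they were the 2 that passed of 3 polyamine genes measured. The 3 probe sets of adc1 that passed were at -1.47, -1.28 and -0.70, but each passed through Ex1 alone. The other adc1 probe set, dim on both arrays, was at -0.50. NML1, a relative of the salicylate response gene NPR1, read 138 against 380, 2.74-fold lower, and AML1 127 against 294, 2.31-fold lower. The lipoxygenase gene loxC, needed for the short-chain aroma volatiles of ripe fruit, read 889 against 1847, 2.08-fold lower. The aldehyde oxidase gene TAO2 read 106 against 221 (2.08-fold lower), the DELLA gene GAI 197 against 390 (-0.98) and the molybdenum cofactor sulfurase gene FLACCA 137 against 266 (-0.95). Among these genes, adc1, NML1, AML1, TAO2 and FLACCA lay under the filter on the pellet array. They passed through Ex1 alone, which largely fixes their direction. Of the 15 lowest genes, loxC had the brightest Ex2 signal, 4310.

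Enzymes of isoprenoid and carotenoid synthesis, some of which make the red pigment of ripe fruit, were mostly below Ex1. Of 12 measured 9 passed, all below 0 and none 2-fold apart, with a median of -0.23. Of these, NSY passed through Ex1 alone, and CrtR-b1, at -0.003, turned above 0 with ribosomal scaling. Differences of the 3 dimmer genes ran from -0.39 to 0.15. DXS, the first enzyme of the plastid isoprenoid route, read 1895 on the pellet array against 3340 on Ex1 (-0.82), the phytoene desaturase gene PDS 875 against 1466 (-0.74), and PTOX, the plastid terminal oxidase gene, 1541 against 2536 (-0.72). The phytoene synthase gene Psy1, the brightest of them, read 11741 against 13657 (-0.22). In sugar metabolism 10 of 19 genes passed, 6 below 0, 3 above and 1 at 0, with a median of -0.26. Sucrose phosphate synthase SPS read 1422 against 2472 (-0.80). The cell wall invertase gene lin5, whose product is secreted, was the highest at 352 on the pellet array against 190 on Ex1 (0.88), and the vacuolar acid invertase gene AI read 13434 against 12414 (0.11).

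Metallothioneins and other small proteins were slightly higher in the pellet. All 5 measured genes of this list passed and were above 0, none 2-fold apart. Their median of 0.58 turned to 0 or just below (-0.0008) with scaling on the spikes. MT4, a metallothionein gene by its symbol, was not on the list. Its 4 bright probe sets lay closer to Ex1, from 0.0 to 0.29. The copper chaperone gene CCH read 3022 on the pellet array against 1670 on Ex1 (0.86), the metallothionein gene MTA 3919 against 2409 (0.70), and LEMT1, the brightest, 13205 against 12833 (0.04). Photosynthesis genes had a median of 0.18 over 6 of 8 genes, and spike scaling would turn it below 0. The photosystem II gene PsbQ read 1265 against 637 (0.99) and the light-harvesting gene CAB4 522 against 306 (0.77), while PSBO and PSBP were exact ties at 3944 and 4036. The green tissue markers CAB4 and psaD (now LOC543978), 2 of 6 listed, summed to 1356 on the pellet array and 1041 on Ex1.

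The remaining lists lay close to Ex1. Ethylene synthesis and ripening genes had a median of 0.11 over 8 of 13, with E8, a ripening marker, at 10417 on the pellet array against 10548 on Ex1 (-0.02) and the synthase gene ACS2 at -0.46. The 14-3-3 proteins, regulators that bind phosphorylated partners, had a median of 0.08 over 7 of 7, from -0.17 for TFT9 to 0.57 for tft8. Lipid oxidation and aroma genes had a median of -0.04 over 8 of 14, with AAT, ADH2 and Fad7 at exact ties. Housekeeping and ribosomal genes had a median of -0.11 over 6 of 6, with ACT at -0.76 and rpl38 at 0.43. The endoplasmic reticulum and secretory route list, mostly small GTPases of vesicle traffic, had a median of 0.22 over 6 of 6, from 0.01 for ypt2 to 0.43 for RAB1B; its member ER24 codes for a transcriptional coactivator. The signs of the ethylene synthesis, 14-3-3 and secretory route medians turned with spike scaling, and that of lipid oxidation with ribosomal scaling. The 2 mitochondrial genes, AOX1a and TIM10, were at -0.18 and 0.24. Of the seed markers, 2 of 5 were measured and both were dim, with a summed intensity of 57.8 on the pellet array and 46.1 on Ex1. The 2 vascular markers of 5 summed to 207 and 285 in the same order, but they went opposite ways. TPRP-F1, dim on both arrays, was at 0.92, and VAHOX1, which passed the filter through Ex1 alone, was at -0.68. None of the 4 markers of nuclear or organelle RNA was among the named genes. Among the 25 genes with several bright probe sets, the gap between their differences had a median of 0.18 and reached 0.77 for adc1; this gap is measured within arrays and not between preparations.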

How the data were processed

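Each preparation was hybridised to 1 Affymetrix tomato GeneChip. The deposited values are probe set intensities on a linear scale, judged by their range; per the submitters' processing notes GCOS 5.0 and RMA were used, with no order or parameters. Median non-control intensity was 170.0 (pellet), 179 (Ex1) and 177 (Ex2). The table held 0 columns of other samples. Names came from the platform annotation, brought up to date by Entrez ID against RefSeq's table of assembly SLM_r2.1, which matched 885 of 909 named probe sets. A gene with several probe sets was given by that with the highest mean log2 value over the 3 arrays. The differences, their filter and the 2-fold limit are defined with the results (pseudocount 1). Named genes are the 15 highest and 15 lowest among genes passing the filter, and list members. The comparison, the lists and the alternatives were chosen with earlier results of these data known, so list counts are descriptions and no independent support. Control probe sets (171, of which 63 are reporter genes) were read as checks. The alternatives changed the filter, the scaling, the pseudocount, the fold, the probe set designs and the choice of a gene's probe set. A planned split of genes by protein sequence was not run, as protein sequences were not used here. The code was tested on simulated data. Python 3.11.15, pandas 2.3.3, NumPy 2.4.6 and matplotlib 3.10.9 were used.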

Additional observations from a re-analysis of the deposited data

How the results depend on the processing

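With 1 array a group no replicate could be left out, and no change of setting measures the spread between preparations. No paired analysis was possible because each group has 1 sample. Counts are given as higher and lower in the pellet, over probe sets and then over named genes (main values 200 and 253, then 24 and 12). They were 96 and 97, then 12 and 5, with the filter at the upper quartile. Asking both arrays to pass, an alternative chosen after seeing the data, gave 119 and 135, then 13 and 4. Scaling on the spikes gave 44 and 979, then 9 and 75. A 3-fold limit gave 43 and 58, then 9 and 3, and a 1.5-fold limit 647 and 669, then 62 and 52. These counts moved by over 1.5 times, and with no filter, a filter on the mean of both arrays, centring, quantile normalization, ribosomal scaling, a pseudocount of 16, or leaving out the 116 probe sets with suffixes _s_at and _x_at they did not. The secreted defence median was 1.29 with no filter and 1.1991 with spike scaling, and the cell wall median 0.16 and -0.0143. Spike scaling also turned the medians of transporters (-0.0054), metallothioneins and small proteins (-0.0008) and the secretory route (-0.36). The photoreceptor and kinase median was -0.07 with the filter on the mean of both arrays. The alternatives that used protein sequence classes were not run.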

Other observations

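The groups below were put together after the values were seen and are descriptions only. Several of their genes are also on the lists above. Proteins of the endoplasmic reticulum and vesicle traffic had 12 genes, all bright and all above 0, with a median of 0.46, which spike scaling would turn below 0. The reticulum-located small heat shock gene ER-SHSP read 3668 on the pellet array against 1756 on Ex1, 2.09-fold higher, and the cell death suppressor gene BI-1, coding for a reticulum membrane protein, 2707 against 1391 (0.96). The 5 other small heat shock genes ranged from 0.13 for HSP17-6 to 0.64 for HSP17.4, of which those under 0.58 turn sign with spike scaling. Of secreted proteins outside the list, the cell wall gene TLRP read 3769 against 1473, 2.56-fold higher, and CIF1, coding for an invertase inhibitor, 1374 against 622, 2.21-fold higher.

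Light and hormone regulators had 18 measured genes, 17 bright, of which 16 were below 0 and 3 at least 2-fold lower (2.55% among all named genes passing), with a median of -0.64. The 3 were CRY2, NML1 and CRY1A, all described above. CRY2, CRY1A, PHYA and Cry1b are also on the photoreceptor and kinase list. Of the 17, 3 passed through Ex1 alone. Over the 14 bright on both arrays the median was -0.63. Of these 14, 1 was at least 2-fold lower, against 4 of all 426 named genes bright on both. The photomorphogenesis repressor gene COP1 read 508 on the pellet array against 900 on Ex1 (-0.82), the gibberellin regulator gene SPY 288 against 543 (-0.91) and the jasmonate receptor gene COI1 217 against 376 (-0.79), while the light-response factor gene HY5 was the exception at 1306 against 1190 (0.13). Of 6 abscisic acid synthesis genes 4 passed, but TAO2, FLACCA and ZEP did so through Ex1 alone, which largely fixes their direction. The 1 bright on both arrays was NCED1, the rate-limiting dioxygenase gene, at 510 on the pellet array against 969 on Ex1 (-0.93). Ribosomal proteins and eIF-5A factors, 10 bright genes of 10, lay from -0.19 for RPL3 to 0.43 for rpl38, with 8 above 0 and a median of 0.17, which turned with scaling on the spikes.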
